A study of Homo sapiens with 48 samples.

Results

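Introns that were already kept in the mature, polyadenylated RNA of control cells were followed through knockdown of the splicing factors SF3B1 and RBM39, with and without oncogene-induced senescence. An intron was included when its percent spliced in (PSI, here the percent of informative reads that keep the intron) was measured in all 48 libraries with adequate coverage and averaged at least 10 over the 16 libraries with a non-targeting siRNA (siNT). This rule left 335 introns of 272 genes, out of 26089 covered introns (1.28%). The cells were IMR90 human lung fibroblasts, an established line, carrying the inducible fusion ER:RAS with the G12V allele in every group. They received 4OHT, which switches the fusion on and drives the cells into senescence, or its solvent DMSO for 6 days, were transfected, and were then kept for 2 days in 0.5% serum. The 6 groups were DMSO siNT, DMSO siSF3B1, DMSO siRBM39, 4OHT siNT, 4OHT siSF3B1 and 4OHT siRBM39, each with 8 libraries from 2 siRNAs of 4 replicates (siNT1 and siNT2, siSF3B1-13 and -16, siRBM39-06 and -08). Because all cells carried the RAS transgene, 4OHT against DMSO compares an induced with an uninduced culture of 1 line, and a DMSO or 4OHT effect unrelated to RAS cannot be told apart from it.

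Most human introns are removed within minutes of being transcribed, but a small class stays in otherwise spliced, polyadenylated transcripts. When such transcripts remain in the nucleus until they are spliced or degraded they are called detained introns, and they are known in the genes of splicing regulators themselves, among them SR proteins and their kinases. SF3B1 is the core protein of the U2 snRNP that recognises the branch point, and RBM39 is a U2AF-related splicing factor that helps choose splice sites. The present measurement is of whole-cell RNA captured by its poly(A) tail, so it does not tell nuclear from cytoplasmic RNA, and the introns are called retained here.

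Library totals in the gene count table lay between 31467221 and 52734636. With DMSO, SF3B1 RNA fell from 345 ± 22.8 CPM (counts scaled to the library total; SD, n = 8) with siNT to 32.8 ± 1.65 with siSF3B1, and with 4OHT it was 332 ± 8.10 against 27.5 ± 1.92. RBM39 RNA was 164 ± 8.69 CPM with siNT against 26.6 ± 2.15 with siRBM39 in DMSO, and 122 ± 4.41 against 16.4 ± 1.55 in 4OHT, so both targets were low in every library of their own group. All 10 fibroblast markers exceeded 10 CPM in every library, and of 8 markers of other cell types 4 stayed under 1 CPM in every library and 1 exceeded 10 CPM in every library. The library DMSO siNT1 replicate 1 had the lowest mean PSI of all 48, both over the 335 introns (19) and over the other introns (0.44), and the comparisons were also made without it and without 4OHT siRBM39-08 replicate 4, which earlier results of these data placed apart from its group. Nothing in the labels says that replicates came from separate cultures, so p-values measure the spread between these libraries, which may be technical.

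The introns on which the results turn differ in length and base composition, and 9 of them are given here 5′ to 3′ with the GT that opens and the AG that closes each intron in capitals. The bases are those of GRCh37 at the annotated intron with the same gene, strand and lengths. The first 3 lay higher after SF3B1 knockdown than after RBM39 knockdown in at least 1 treatment and are short. FXR1 lies at chr3:180680729-180680815 (plus strand), DVL3 at chr3:183882720-183882900 (plus strand) and CDK10 at chr16:89759735-89759805 (plus strand).
FXR1, 87 bases: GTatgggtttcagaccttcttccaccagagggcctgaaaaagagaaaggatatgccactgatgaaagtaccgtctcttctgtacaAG
DVL3, 181 bases: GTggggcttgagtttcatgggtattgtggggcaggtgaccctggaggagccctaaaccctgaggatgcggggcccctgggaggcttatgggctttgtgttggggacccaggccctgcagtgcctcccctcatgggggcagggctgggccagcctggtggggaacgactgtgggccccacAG
CDK10, 71 bases: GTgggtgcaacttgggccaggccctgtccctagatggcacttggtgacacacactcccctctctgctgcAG
LAMB2 at chr3:49160486-49160564 (minus strand) lay higher after RBM39 knockdown, and COL7A1 at chr3:48629901-48630002 (minus strand) lay higher in 4OHT than in DMSO under either knockdown.
LAMB2, 79 bases: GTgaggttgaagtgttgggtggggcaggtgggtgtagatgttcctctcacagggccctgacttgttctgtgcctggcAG
COL7A1, 102 bases: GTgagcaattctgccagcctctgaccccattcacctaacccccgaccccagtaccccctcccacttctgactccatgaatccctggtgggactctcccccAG
RSRP1, PNISR, ARGLU1 and HNRNPH1 lay lower after SF3B1 than after RBM39 knockdown, as the LAMB2 intron did. For the first 3, which are long, the first 30 and the last 60 bases are given. These stretches lie at chr1:25571611-25571640 and chr1:25570125-25570184 for RSRP1, chr6:99851675-99851704 and chr6:99850587-99850646 for PNISR, and chr13:107211750-107211779 and chr13:107209480-107209539 for ARGLU1, and the HNRNPH1 intron at chr5:179048037-179048242, all on the minus strand.
RSRP1, first 30 of 1516 bases: GTaagtattctaggtttgtcggaacaaaac
RSRP1, last 60 of 1516 bases: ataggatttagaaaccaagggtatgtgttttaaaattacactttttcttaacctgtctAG
PNISR, first 30 of 1118 bases: GTaagtgttttccatatttgtgagagggcc
PNISR, last 60 of 1118 bases: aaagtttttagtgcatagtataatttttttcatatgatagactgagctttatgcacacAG
ARGLU1, first 30 of 2300 bases: GTaacgctcggtcgtttggaaagtagagac
ARGLU1, last 60 of 2300 bases: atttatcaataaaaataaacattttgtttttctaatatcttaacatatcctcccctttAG
HNRNPH1, 206 bases: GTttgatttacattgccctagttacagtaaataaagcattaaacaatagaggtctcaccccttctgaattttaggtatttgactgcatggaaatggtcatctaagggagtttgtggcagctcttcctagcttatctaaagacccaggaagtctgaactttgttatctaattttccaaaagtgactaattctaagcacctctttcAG
The introns of the first 2 sets hold from 46% G and C in FXR1 to 66.3% in DVL3. LAMB2, which lay lower after SF3B1 than after RBM39 knockdown like the last set, holds 58.2%. RSRP1, PNISR, ARGLU1 and HNRNPH1 hold 37.4%, 33%, 34.8% and 37.4% over their whole length.

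Control retention was modest for most of these introns. The mean siNT PSI lay from 10 to 15 for 153 introns, from 15 to 20 for 78, from 20 to 50 for 72 and at 50 or more for 32, with a median of 15.97 against 0.15 for the other covered introns. These levels chose the introns and are given as a description only. The 3 highest were an intron of the actin-oxidising enzyme gene MICAL2 (99.88), an intron of the ubiquitin ligase gene TRIM41 (98.83) and an intron of the cortactin gene CTTN (97.19), all inside annotated exons of other transcripts of their genes. Just inside the limit lay TMEM259 (10.01), MACROH2A1 (10.07) and RABGGTA (10.08), and just outside it lay NDUFV1 (9.999), SLC16A3 (9.96) and PFDN5 (9.95). Several introns of 1 gene were often retained together: 46 genes held 2 or more of the introns, 109 in all, led by INPPL1 with 5 and by HNRNPH1 and MICAL1 with 4 each. Introns of 1 gene share its transcripts and are not independent.

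The introns shared features that the rule did not use. Of the 327 that could be placed on annotated introns of GRCh37, 322 opened with GT and closed with AG, and 5 opened with GC. Their median length was 547 bases (quartiles 213 and 1396.5) against 1156 for the other covered introns, and their median G and C content was 56.6% against 45.69%. Splice site scores, the log2 odds of the bases at the site against equal base use, with a matrix built from the covered introns, had medians of 7.44 against 8.21 at the 5′ end and 8.43 against 9.57 at the 3′ end. The pyrimidine share of the stretch before the 3′ splice site had the same median in both, 76.47%. In 187 introns (57.19%) another annotated transcript of the same gene held the whole intron within 1 exon, against 10.51% of the other introns. Retention would place a stop codon in frame within 88.89% of the 297 introns between coding exons, against 94.49% of the others, and 21.12% were the last intron of their transcript against 11.01%. All of these are descriptions of introns chosen for their level, over features that go with one another.

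PSI in these files is the mean of the reads over both exon-intron junctions set against the spliced reads, so an intron can reach its PSI from 1 end only. The sum of informative reads for an intron in a library had a median of 70 and a lowest value of 11. In 203 of the 335 introns (60.6%) 1 junction had under 50% of the reads of the other, a share also seen among the remaining introns (60.63%). In 51 introns (15.2%) it had under 10%, as in NABP1 (9 reads over the 5′ junction and 2618 over the 3′ junction, summed over all libraries), RBPMS (3512 and 71) and LUC7L (1453 and 26). RSRP1 was supported at both ends, with 1707 and 1739 reads over its junctions and 5393 spliced reads. When PSI was taken from the junction with fewer reads, 150 of the 335 introns (44.8%) still averaged 10 or more in controls. The test of balance deposited with each PSI gave a p of at least 0.05 in all libraries for 42 of the introns (12.5%) and for 83.1% of all covered introns. For the rest, retention of the whole intron and use of an alternative exon end inside it cannot be told apart from these reads. Many of the introns named by rule fell under 10 in controls by the junction with fewer reads. The lowest were NABP1 (0.41), the 6888-base MACROH2A1 intron (0.83), LUC7L (1.18), OGA (1.94), RBPMS (3.21), TMEM259 (3.90) and the 7451-base MACROH2A1 intron (4.23). TYK2 (5.04), SEMA4C (5.16), the 79-base LAMB2 intron (6.56), RABGGTA (6.6), PTPMT1 (6.67) and the 945-base HNRNPH1 intron (7.61) followed. COL5A1 (8.07), SEPTIN11 (8.75), PRKCSH and NCKAP5L (8.77 each), the 405-base FKBP10 intron (8.91), DVL3 (9.01), the 694-base CDC42SE1 intron (9.34) and JTB (9.52) lay nearer to the limit.

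**Figure D1:**
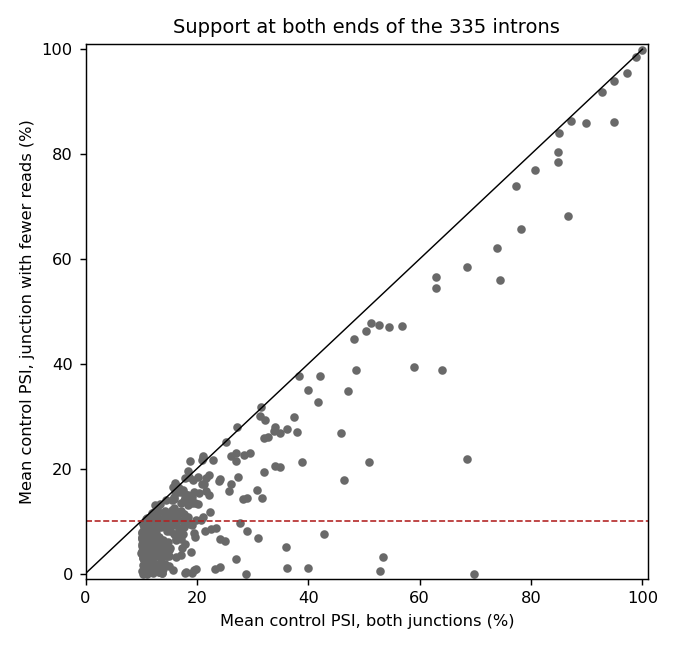
Mean PSI over the 16 siNT libraries computed from both exon-intron junctions (x axis, %) and from the junction with fewer reads (y axis, %), 1 point per intron, with the line of equal values in black and 10% as a dashed line. The 150 introns on or above the dashed line are retained at both ends, and the points near 0 have few reads at 1 end.

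Averaged over the 335 introns, PSI was highest after SF3B1 knockdown and intermediate after RBM39 knockdown. In DMSO the mean PSI per library was lowest at 19, with a median of 24.03 and a highest value of 26.35, in siNT, against 31.38, 32.39 and 33.50 in siSF3B1 and 25.45, 28.13 and 30.28 in siRBM39. In 4OHT the same 3 values were 22.01, 22.42 and 23.48 in siNT, 32.05, 33.60 and 34.20 in siSF3B1 and 25, 26.77 and 28.68 in siRBM39. The siSF3B1 libraries lay above all others in both treatments, and the DMSO siNT and siRBM39 ranges overlapped. The average hid movement at the low end: introns with a group mean PSI under 5 numbered, for DMSO and then 4OHT, 1 and 1 with siNT, 15 and 22 with siSF3B1, and 3 and 9 with siRBM39, while those at 50 or more numbered 29 and 33 in siNT, 72 and 80 in siSF3B1 and 44 and 47 in siRBM39. Since the siNT values chose the introns, the contrast with siNT in this paragraph carries no test.

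The first question was how the 2 knockdowns differ on these introns, a comparison that uses no siNT library. An intron was called when limma on logit-scaled PSI gave an adjusted p under 0.05 over all 26089 covered introns and the means differed by at least 5 points. In 4OHT, 130 of the 335 introns (38.8%) were higher in siSF3B1 than in siRBM39 and 57 (17%) were lower. Among all covered introns 7.22% were higher and 0.682% lower. In DMSO, 110 (32.8%) were higher and 68 (20.3%) lower, against 5.67% and 0.912% of all. A fall of 5 points needs a PSI of at least 5 to fall from, which 326 of the 335 introns but only 1639 of all covered introns had in 4OHT siRBM39, so the share of all introns called lower is not a like-for-like background. The same holds for 332 of the 335 and 1701 of all in DMSO siRBM39. The share called higher depends on the background as well. Over the 768 introns with PSI from 1 to 99 in all libraries, fitted on the plain logit, 288 were among the 335. In 4OHT 125 of the 288 and 366 of the 768 were higher, and 51 and 85 were lower. In DMSO 111 and 322 were higher, and 58 and 87 were lower. The libraries of the 2 groups did not overlap in 84 of the introns called higher and 28 of those called lower in 4OHT. Overlap was not counted over all covered introns, so these 2 counts are a description only. The median difference over the 335 introns was 3.53 points in 4OHT and 1.90 in DMSO, against 0.12 and 0.06 over all covered introns.

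The largest gain with SF3B1 knockdown over RBM39 knockdown was in DVL3, which encodes a Dishevelled protein that relays Wnt signals. In 4OHT its 181-base intron had a lowest, median and highest PSI of 12.4, 16.2 and 24.9 in siRBM39 and of 67.7, 73.4 and 81.6 in siSF3B1, a difference of 57.2 points (adjusted p = 1.8e-19). The siNT libraries of 4OHT cells lay from 7.89 to 16.0, near those of siRBM39. IFFO1, which encodes a nuclear intermediate filament-like protein, had values of 6.64, 17.8 and 37.6 in siRBM39 and 64.6, 72.1 and 82.7 in siSF3B1 (54.7 points, adjusted p = 8e-16). SEMA4C, a transmembrane semaphorin, went from 5.88, 7.30 and 26.1 to 52.5, 63.5 and 75.4 (52.5 points, adjusted p = 2.3e-11). The naming rule asked for groups without overlap, so the lack of overlap in these 3 follows from the choice.

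JTB, which encodes a small transmembrane protein linked to cell division, had PSI of 6.71, 11.7 and 20.7 in 4OHT siRBM39 and of 49.6, 65.7 and 83.1 in 4OHT siSF3B1 (52.4 points, adjusted p = 6.5e-16). FXR1, an RNA-binding paralogue of the fragile X protein, had an 87-base intron at 22.9, 29 and 46.6 in siRBM39 and at 72.3, 81.1 and 86.4 in siSF3B1 (50.8 points, adjusted p = 1e-18). The same FXR1 intron differed by 46.03 points in DMSO (adjusted p = 6.8e-17), and its siNT libraries lay from 21.5 to 44.5 over both treatments, in the range of siRBM39. The FXR1 intron holds no in-frame stop codon, unlike the introns of DVL3 and JTB.

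Among introns lower after SF3B1 than after RBM39 knockdown was a pair in the laminin beta gene LAMB2, which encodes part of the basement membrane. Its 79-base intron had PSI of 39.7, 57.4 and 63.2 in 4OHT siRBM39 and of 3.72, 10.4 and 24.3 in 4OHT siSF3B1 (-42.9 points, adjusted p = 6.1e-12), with siNT at 20.4, 24.3 and 45.7. A neighbouring 333-base LAMB2 intron went the same way, at 52.4, 64.7 and 71.6 in siRBM39 against 14.96, 23.2 and 32.5 in siSF3B1 (-40.4 points, adjusted p = 2.5e-13). BUB3, a spindle checkpoint gene, had its last intron at 29.3, 44.2 and 52.8 in siRBM39 against 7.14, 12.8 and 14.5 in siSF3B1 (-30.7 points, adjusted p = 5.7e-12). PRKCSH, the beta subunit of glucosidase II in the endoplasmic reticulum, had values of 24.6, 36 and 42.4 against 5.72, 8.53 and 10.6 (-27.1 points, adjusted p = 2.5e-21). In LAMB2, BUB3 and PRKCSH the siRBM39 group mean was also the highest of the 3 in both treatments. Relative to siNT2 in 4OHT, siSF3B1 lowered the 79-base LAMB2 intron (-11.1 points, adjusted p = 0.0066) and PRKCSH (-9.53 points, adjusted p = 8.3e-09), while the 333-base LAMB2 intron (adjusted p = 0.06) and BUB3 (adjusted p = 0.76) did not pass.

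PNISR, a gene for an SR-related nuclear protein, also lay lower with siSF3B1. Its 1118-base intron had PSI of 36.98, 51.7 and 60.5 in 4OHT siRBM39 and of 11.5, 17.4 and 26.3 in 4OHT siSF3B1 (-31.4 points, adjusted p = 3.2e-10), while 4OHT siNT libraries lay at 37.1, 53.4 and 67.5. In DMSO the difference was -20.6 points (adjusted p = 4.3e-05). RSRP1 and HNRNPDL, described next, also lay lower in siSF3B1 than in siRBM39, by 16.3 points (adjusted p = 2e-08) and 15.6 points (adjusted p = 6.9e-12) in 4OHT, and both knockdown groups lay below siNT in their means.

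**Figure D2:**
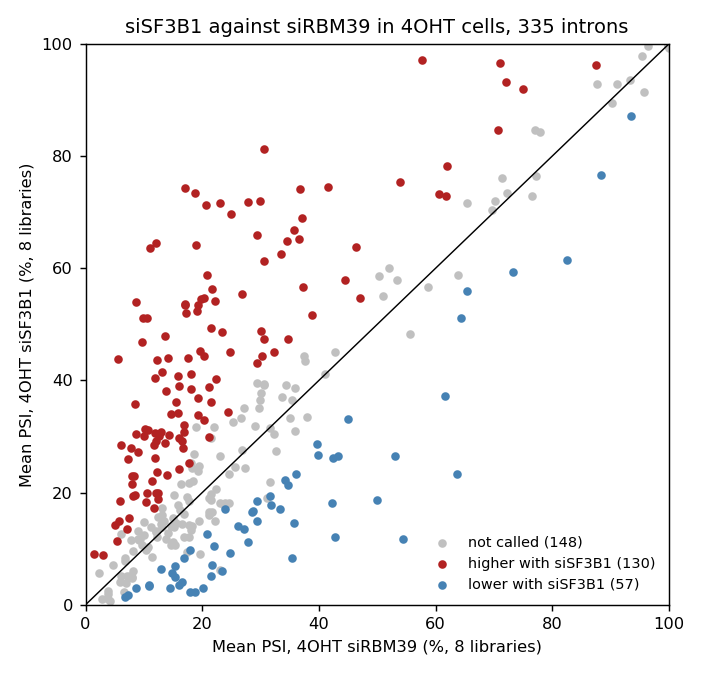
Mean PSI over the 8 4OHT siRBM39 libraries (x axis, %) against the mean over the 8 4OHT siSF3B1 libraries (y axis, %) for each of the 335 introns, coloured by the call of siSF3B1 against siRBM39, with the line of equal values. The 130 introns called higher spread far above the line, and the 57 called lower include several with siSF3B1 means near 0.

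The second question was how the introns of control cells change with each knockdown. To keep choice and test apart, introns were chosen again on the 8 siNT1 libraries alone, with the same limit of 10, and compared with the 8 siNT2 libraries, 4 in each treatment, that this choice did not use. This gave 343 introns, 319 of them among the 335. In 4OHT, siSF3B1 raised 169 of the 343 (49.3%) and lowered 33 (9.62%) relative to siNT2, against 9.05% and 0.215% of all covered introns. In DMSO it raised 148 (43.1%) and lowered 36 (10.5%), against 7.37% and 0.253%. The lower calls of SF3B1 knockdown came largely from this small set: 33 of the 56 in 4OHT and 36 of the 66 in DMSO, where 340 of the 899 and 339 of the 988 introns with a siNT2 PSI of at least 5 belonged to it. RBM39 knockdown raised 77 (22.4%) and lowered 17 (4.96%) in 4OHT, against 1.61% and 0.092% of all, and raised 82 (23.9%) and lowered 12 (3.50%) in DMSO, against 1.56% and 0.0805%. Both knockdowns are set against the same siNT2 libraries. Of the 768 introns with PSI from 1 to 99 in all libraries, fitted on the plain logit, 298 belonged to this set. In 4OHT siSF3B1 raised 169 of the 298 and 486 of the 768, and lowered 27 and 29. In DMSO it raised 152 and 449 and lowered 29 and 30. RBM39 knockdown raised 111 and 267 in 4OHT and 110 and 248 in DMSO. It lowered 21 and 21 in 4OHT and 15 and 16 in DMSO. When PSI came from the junction with fewer reads, siSF3B1 raised 111 and lowered 17 of the 343 in 4OHT. Over all 26089 covered introns it then raised 1175 and lowered 21. In DMSO it raised 88 and lowered 18 of the 343, beside 842 and 28 of all. By the same measure siRBM39 raised 29 and lowered 2 in 4OHT, beside 86 and 2 of all. In DMSO siRBM39 raised 33 and lowered 3, beside 95 and 4 of all.

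Among introns that fell with SF3B1 knockdown, RSRP1, which encodes an arginine- and serine-rich protein, changed most. The event table lists it as C1orf63, at chr1:25243634-25245149 (GRCh38). Its 4 4OHT siNT2 libraries had PSI of 80.4, 81.3, 87.1 and 79.4. In 4OHT siSF3B1 the lowest, median and highest values were 2.88, 5.27 and 7.69 (-76.9 points, adjusted p = 1.1e-18), and in 4OHT siRBM39 they were 17.98, 20.6 and 28.5 (-60.5 points, adjusted p = 3.2e-11). The DMSO groups gave the same order, with siNT from 61.4 to 94.0, siRBM39 from 22.7 to 36.2 and siSF3B1 from 5.52 to 10.6, and no 2 of them overlapped. Both ends of the intron carried reads, and the junction with fewer reads gave a control PSI of 83.9.

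HNRNPDL, which encodes an hnRNP D-like RNA-binding protein and is listed as HNRPDL, had siNT2 values of 17.8, 45.5, 22.9 and 22.03 in 4OHT. Its siSF3B1 libraries lay at 0.74, 1.99 and 4.35 (-24.7 points, adjusted p = 1.1e-11). Its siRBM39 libraries lay at 13.3, 15.4 and 29.3, a difference of -9.13 points from siNT2 that did not pass (adjusted p = 0.36). PNISR lay 35.2 points under siNT2 with siSF3B1 (adjusted p = 1e-08) and differed by -3.78 points with siRBM39 (adjusted p = 1). For both genes the difference between the knockdowns themselves passed, as given above.

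NABP1, a gene for a single-stranded DNA-binding protein listed as OBFC2A, ranged in DMSO from 70.4 to 83.7 in siNT, from 2.08 to 5.94 in siSF3B1 and from 1.01 to 19.7 in siRBM39. In 4OHT its siNT2 libraries had 33.3, 26.5, 31.9 and 26.2, and the differences were -28.4 points with siSF3B1 (adjusted p = 3e-13) and -26.6 with siRBM39 (adjusted p = 4e-09). The reads lie almost wholly over its 3′ junction, and by the junction with fewer reads its control PSI is 0.41, so the deposited value rests on reads at 1 end. The same limit applies to RBPMS, an RNA-binding protein gene that was 20.5 points lower with siRBM39 than with siNT2 in 4OHT (adjusted p = 0.00037) and has a control PSI of 3.21 by the junction with fewer reads. COL5A1, a fibrillar collagen chain, had siNT2 values of 37.4, 38.5, 28.8 and 38.1 in 4OHT. It was at 5.77, 10.6 and 18.8 in siSF3B1 (-23.7 points, adjusted p = 7.5e-06) and at 11.5, 15.7 and 26.2 in siRBM39 (-18.02 points, adjusted p = 0.012), with 1270 reads over the 5′ and 160 over the 3′ junction.

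Among the introns that rose most with SF3B1 knockdown relative to siNT2 in 4OHT were those of DVL3 (63.3 points, adjusted p = 4e-18), NCKAP5L and LRCH4. NCKAP5L, a microtubule-binding protein gene, rose by 56.1 points (adjusted p = 8.5e-13) and LRCH4, a leucine-rich repeat gene, by 55.5 points (adjusted p = 2.1e-08). LRCH4 also rose with siRBM39 (22.5 points, adjusted p = 0.036), and the 32.98 points between the knockdowns passed (adjusted p = 2.9e-05).

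Introns that rose most with RBM39 knockdown relative to siNT2 were in SLC26A6, INPPL1, RUSF1 and TYK2. SLC26A6, an anion exchanger, had siNT2 values of 23.5, 24.5, 24.5 and 20.97 in 4OHT, siRBM39 values of 59.5, 64.1 and 75.7 (42.04 points, adjusted p = 3.9e-11) and siSF3B1 values of 49.9, 55.0 and 64.3 (32.6 points, adjusted p = 6e-10). TYK2, a Janus kinase, had siNT2 values of 11.3, 8.90, 13.2 and 7.36, siRBM39 values of 34.7, 39.1 and 63.4 (32.2 points, adjusted p = 3e-06) and siSF3B1 values of 14.5, 28.3 and 33.7 (15.96 points, adjusted p = 0.00093). RUSF1, listed as C16orf58, rose by 33.02 points with siRBM39 (adjusted p = 0.0011) and 41.1 with siSF3B1 (adjusted p = 2.8e-06). All 4 therefore rose with both knockdowns.

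INPPL1, the lipid phosphatase SHIP2, holds 5 of the 335 introns, and they did not move together. In 4OHT the group means went from 10.3 in siNT to 64.1 in siSF3B1 and 18.9 in siRBM39 for its 289-base intron. For its 228-base intron they were 19.8, 75.4 and 53.9, and for its 242-base intron 19.8, 55.5 and 26.8. Its 234-base intron had 22, 26.5 and 43.2, and its 132-base intron 14.1, 11.7 and 13.7. Between siSF3B1 and siRBM39 the first 3 were higher (45.2, 21.5 and 28.7 points, adjusted p from 3e-11 to 0.00069), the 234-base intron was lower (-16.8 points, adjusted p = 0.0025) and the 132-base intron differed by -1.99 points (adjusted p = 0.55). HNRNPH1, which encodes an hnRNP that binds G-rich RNA, chosen for its 4 introns, had a 206-base intron lower in siSF3B1 than in siRBM39 in 4OHT (-11.9 points, adjusted p = 0.046), a 92-base intron higher (7.51 points, adjusted p = 0.018) and 945- and 1639-base introns that were not called.

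Introns called in opposite directions differed in length and base composition. Those higher in siSF3B1 than in siRBM39 in 4OHT had a median length of 392 bases and 59.86% G and C, and those lower had 754 bases and 49.25%. In the set chosen on siNT1, introns raised by siSF3B1 relative to siNT2 in 4OHT had a median of 306 bases and 60.24% G and C, and the 33 lowered had 1227 bases and 38.63%. Those raised by siRBM39 had 405 bases and 57.0%, and the 17 lowered had 1438 bases and 40.85%. The median 3′ splice site score was 7.47 in introns raised and 8.87 in introns lowered by siSF3B1, with quartiles of 4.95 and 9.88 against 6.63 and 11.71 that overlap. These medians describe the calls and were not tested.

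By G and C content, the 56 introns under 40% averaged a PSI in DMSO of 27.58 with siNT, 21.11 with siSF3B1 and 24.95 with siRBM39. The 124 introns at 60% or more averaged 20.46, 36.28 and 26.88 in the same groups. In 4OHT the values were 22.89, 20.09 and 21.43 for the first class and 20.91, 38.46 and 27.05 for the second. Between siSF3B1 and siRBM39 in DMSO, 7 of the first class were higher and 26 lower, and 56 of the second were higher and 11 lower. In 4OHT the counts were 13 and 15 for the first class, which were then nearly even, and 63 and 12 for the second. As siNT chose the introns, its means here carry no test. By length, the 57 introns of 150 bases or less included 31 higher and 6 lower in DMSO and 32 and 7 in 4OHT. The 105 introns over 150 and up to 500 bases included 38 and 16, and 39 and 13. The 49 introns over 500 and under 1000 bases included 8 and 18, and 16 and 16, and the 124 of 1000 bases or more 33 and 28, and 43 and 21, so the calls did not follow length in 1 direction. Short introns tend to be rich in G and C, so the 2 properties are not separated by these counts. Calls by class were not counted over all covered introns. The counts by G and C and by length are therefore a description of these introns, and whether other introns of the same class differ was not tested.

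The third question was whether RAS induction changes the introns. It was tested within each knockdown, since siNT chose the introns. In siSF3B1 cells, 12 introns (3.58%) were higher and 13 (3.88%) lower in 4OHT than in DMSO, against 0.418% and 0.0767% of all covered introns. In siRBM39 cells 13 (3.88%) were higher and 20 (5.97%) lower, against 0.23% and 0.184%. Of the introns with a DMSO PSI of at least 5, 320 of 2955 in siSF3B1 and 332 of 1701 in siRBM39 were among the 335. Of the introns with PSI from 1 to 99 in all libraries, fitted on the plain logit, 288 of 768 were among the 335. These held 18 of the 40 higher and 16 of the 23 lower calls in siSF3B1, and 22 of 61 and 30 of 49 in siRBM39. In siNT cells, given as a description, 47 introns had a mean at least 5 points higher in 4OHT and 75 at least 5 points lower, with a median difference of -0.57. The called counts in the knockdowns are small and moved with the siRNAs and replicates used: each siRNA pair alone left 6 higher calls in siSF3B1 cells and 5 or 6 in siRBM39 cells. Of all covered introns, the pairs called 78 and 38 higher in siSF3B1 cells, and 21 and 24 in siRBM39 cells. By limma, no intron of the 335 passed in either direction for a difference between treatments in the effect of siSF3B1 relative to siRBM39. Of all covered introns, 0.0192% were called higher and 0.00767% lower. An unadjusted p under 0.05 was found for 55 of the 335 and for 2221 of all 26089 covered introns. Fits with other settings called at most 1 of the 335.

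COL7A1, the collagen of anchoring fibrils, lay higher in 4OHT under both knockdowns. Its 102-base intron had PSI of 40.8, 50.1 and 64.3 in DMSO siSF3B1 and of 68.7, 70.6 and 77.1 in 4OHT siSF3B1 (19.95 points, adjusted p = 0.00025). In siRBM39 it went from 28.2, 38.7 and 60.5 to 56.4, 64.5 and 76.1 (24.4 points, adjusted p = 2.8e-05), and the siNT libraries lay from 8.05 to 24.02 in DMSO and from 37.5 to 46.8 in 4OHT. RHBDF1, an inactive rhomboid protease, rose in siSF3B1 from 37.9, 40.99 and 43.4 to 51.7, 56.7 and 59.99 (16.02 points, adjusted p = 1e-06). FKBP10, a collagen chaperone, rose in both knockdowns, by 13.2 points in siSF3B1 (adjusted p = 1e-06) and 12.4 in siRBM39 (adjusted p = 2.7e-11).

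Other higher calls were IRF9, a subunit of the interferon-stimulated transcription factor, in siSF3B1 (13.6 points, adjusted p = 0.039), and PTPMT1, a mitochondrial phosphatase, and POLR2I, an RNA polymerase II subunit, in siRBM39 (15.7 points, adjusted p = 0.00051, and 14.7 points, adjusted p = 0.028). SEPTIN11, a septin listed as SEPT11, had the largest loss in siSF3B1. Its PSI went from 46.8, 51.01 and 54.7 in DMSO to 23.1, 26.5 and 33.3 in 4OHT (-23.5 points, adjusted p = 2.8e-06), and in siRBM39 it fell by 18.9 points (adjusted p = 0.00029). DDX5, an RNA helicase, fell in both knockdowns, by 13.5 points (adjusted p = 0.026) and 11.9 points (adjusted p = 0.041). MACROH2A1, a histone variant gene listed as H2AFY, fell by 11.8 points in siSF3B1 in its 6888-base intron (adjusted p = 0.00059), which had 513 reads over the 5′ and 31 over the 3′ junction.

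TTC14, a gene of a tetratricopeptide protein, had the largest loss in siRBM39, from 26.3, 33.6 and 34.1 in DMSO to 3.78, 5.26 and 7.88 in 4OHT (-26.8 points, adjusted p = 5e-08). Its siNT libraries lay from 30.3 to 60.5 in DMSO and from 3.37 to 31.4 in 4OHT. Both CDC42SE1 introns, in a gene for a CDC42-binding scaffold, fell in siRBM39 (-21.7 points, adjusted p = 0.0071, and -9.04 points, adjusted p = 0.0054). CDK10, the 1 intron from the list of transcriptional CDKs and cyclins, was at 37.3, 50.1 and 70.6 in DMSO siRBM39 and 64.2, 73.6 and 95 in 4OHT siRBM39 (26.5 points, adjusted p = 0.002). Its range over siNT libraries was 18.9 to 47.1 in DMSO and 43.7 to 74.1 in 4OHT.

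By gene list, splicing regulators held 35 of the introns. SR and SR-related protein genes held 14, of 113 covered introns, hnRNP and PTB genes 9 of 139, and the spliceosome and U2AF family 12 of 523, beside 1.28% of all covered introns. CLK, SRPK and DYRK kinases, which phosphorylate SR proteins, held none of 34 covered introns and cytosolic ribosomal protein genes none of 76, numbers at which a share of 1.28% would give few or none. Genes of RNA modification and the marker lists also held none. In 4OHT siSF3B1 against siRBM39, 5 of the 14 SR introns were higher and 6 lower (median -1.84 points), 3 and 2 of the 9 hnRNP introns (median -1.43), and 3 and 5 of the 12 spliceosome introns (median -4.67), beside a median of 3.53 for the 335 and 0.12 for all covered introns. In DMSO the counts were 4 higher and 8 lower, 3 and 6, and 2 and 6, with medians of -6.72, -9.96 and -5.19. Relative to siNT2 in DMSO, siSF3B1 raised 2 and lowered 7 of the SR introns, raised 3 and lowered 4 of the hnRNP introns, and raised 2 and lowered 4 of the spliceosome introns. In 4OHT the counts were 4 and 6, 3 and 2, and 3 and 5. The difference between treatments in these counts was not tested. Over all covered introns 7.37% rose and 0.253% fell in DMSO and 9.05% and 0.215% in 4OHT.

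Within the SR list the introns with the highest control PSI were RSRP1, ARGLU1, PNISR and ACIN1. ARGLU1, an arginine- and glutamate-rich splicing modulator, had PSI of 69.2, 82.2 and 96.1 in 4OHT siRBM39 and 51.3, 58.6 and 79.7 in 4OHT siSF3B1 (-21.1 points, adjusted p = 0.00029). ACIN1, a component of the exon junction-associated ASAP complex, went the other way, at 24.2, 38.2 and 45.6 in siRBM39 and 60.2, 65.8 and 69.9 in siSF3B1 (28.6 points, adjusted p = 4.2e-07). Chosen after their values were seen, SRSF6, SRSF7 and SRSF11, all classical or related SR proteins, were lower in siSF3B1 than in siRBM39 in 4OHT by 17.3, 7.53 and 5.44 points (adjusted p = 3.7e-15, 1.1e-06 and 3.1e-06), with siSF3B1 means of 6.04, 3.31 and 1.78. An SRSF5 intron of 285 bases, chosen likewise, was 14 points higher (adjusted p = 0.0012).

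In the hnRNP list the HNRNPH1 intron of 206 bases was lower in siSF3B1 in DMSO as well (-22.6 points, adjusted p = 8.3e-05). In the spliceosome list DDX5 (-13.1 points, adjusted p = 0.0027) and LUC7L3 (-12.1 points, adjusted p = 9.1e-06) were lower in siSF3B1 than in siRBM39 in 4OHT, ZRANB2 differed by -11.9 points without passing (adjusted p = 0.079), and LUC7L, with reads at 1 end, differed by 5.26 (adjusted p = 0.41). LUC7L3 and LUC7L are relatives of a U1 snRNP protein and ZRANB2 is a zinc finger splicing regulator. RBM25 and PUF60, chosen after their values were seen, were lower by 12.5 points (adjusted p = 4.1e-08) and 5.77 points (adjusted p = 0.00094). OGA, the enzyme that removes O-GlcNAc and a known gene of a regulated detained intron, listed as MGEA5, differed by -7.91 points (adjusted p = 0.11). Among 5 introns of snoRNA host genes none was called in 4OHT siSF3B1 against siRBM39, while 3 were lower in 4OHT siSF3B1 than in siNT2, and the 1 intron of an aminoacyl-tRNA synthetase gene, IARS1, was called in neither.

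The RNA level of the host genes was measured on the gene counts, which did not choose the introns, although a count includes reads from the retained introns where they were counted. Of the 272 host genes, 267 were in the count table and 265 passed the expression filter. In 4OHT, 119 of the 265 (44.9%) were higher and 84 (31.7%) lower in siSF3B1 than in siNT by edgeR's quasi-likelihood test, against 39.4% and 37.6% of the 9991 genes tested. In DMSO, 112 (42.3%) were higher and 74 (27.9%) lower, against 36.5% and 36.2%. For siRBM39, 120 (45.3%) were higher and 47 (17.7%) lower in 4OHT, against 32.2% and 24.3%, and 97 (36.6%) and 42 (15.8%) in DMSO, against 23.9% and 22.2%. For 4OHT against DMSO in siNT, 117 (44.2%) were higher and 81 (30.6%) lower, against 39% and 39.1%. Among the 5412 tested genes that host any covered intron, the shares higher were 39.4%, 39.9%, 31.6%, 26.6% and 45% in the same order, and the shares lower were 36.1%, 31.8%, 23.9%, 20.2% and 31.5%. No test was made of the difference between these shares. Their median log2 fold change was between 0.06 and 0.14 in the 5 comparisons. The highest, siRBM39 in 4OHT, was 0.05 without 4OHT siRBM39-08 replicate 4, where 102 host genes were higher and 68 lower. In that fit 3308 of the 9991 genes were higher and 2705 lower, with a median of 0.04 over all genes. With a minimum change of 1.5-fold at most 38 of the 265 were called in any 1 direction. Those 38 were higher with siSF3B1 in 4OHT, where 22 were lower, beside 1313 higher and 1864 lower of the 9991 genes. These counts come from whole cultures, so fewer cells with a transcript and less of it per cell cannot be told apart.

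Host RNA did not follow the intron in 1 direction. Of the 31 tested host genes of introns that fell with siSF3B1 relative to siNT2 in 4OHT, 20 were higher and 6 lower in siSF3B1 than in siNT (median log2 fold change 0.24). Of the 142 host genes of introns that rose, 58 were higher and 41 lower (median 0.09), and of the 122 of introns not called, 52 and 47 (median 0.06). With siSF3B1 in DMSO, 18 of the 34 host genes of introns that fell were higher and 11 lower. Introns that rose gave 44 and 35 of 125, and introns not called 58 and 40 of 136. With siRBM39 in DMSO, introns that fell gave 4 higher and 5 lower of 11. Those that rose gave 23 and 16 of 68, and those not called 78 and 27 of 212. In 4OHT these were 6 and 5 of 15, 24 and 17 of 68, and 103 and 34 of 213. Of all genes tested, 39.4% were higher and 37.6% lower with siSF3B1 in 4OHT, and 36.5% and 36.2% in DMSO. With siRBM39 the shares were 32.2% and 24.3% in 4OHT, and 23.9% and 22.2% in DMSO. RSRP1 RNA rose by 1.85 ± 0.08 on the log2 scale (SE; adjusted p = 7.1e-26) with siSF3B1 in 4OHT and by 1.5 ± 0.08 with siRBM39 (adjusted p = 6e-22), and HNRNPDL RNA rose by 0.88 ± 0.04 with siSF3B1 (adjusted p = 7.1e-26). PNISR RNA changed less with siSF3B1 (0.21 ± 0.08, adjusted p = 0.015). RUSF1 RNA, whose intron rose, fell by 1.44 ± 0.07 (adjusted p = 1.4e-24). DVL3 RNA, whose intron also rose, was 0.58 ± 0.03 higher (adjusted p = 3.9e-20) and FXR1 differed by -0.05 ± 0.06 (adjusted p = 0.44). In 4OHT against DMSO siNT cells COL7A1 RNA rose by 2.35 ± 0.14 (adjusted p = 6e-21), and IRF9 RNA fell by 1.13 ± 0.08 (adjusted p = 1.4e-18).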

How the data were processed

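RNA of 48 libraries of IMR90 ER:RAS cells was sequenced after poly(A) capture. The authors quantified splicing events with vast-tools and deposited each event's PSI as a percent, beside quality columns that hold a coverage score, junction reads and a test of balance between both exon-intron junctions. They also deposited read counts per gene. A table of normalised CPM was not used here. The members and gene lists were chosen with earlier results of these data known. Introns needed a PSI in all 48 libraries and a coverage score other than the lowest, which left 26089, and 335 of them had a mean siNT PSI of at least 10.

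PSI was squeezed (0.01 + 0.98 of the fraction), put on the logit scale and fitted with limma 3.58.1 in R 4.3.3 over all 26089 introns, with Benjamini-Hochberg adjustment and a minimum difference of 5 points. Because siNT chose the introns, tests used the groups without siNT, or introns chosen on siNT1 and compared with siNT2. Counts of genes with at least 10000 counts in total (9991 genes) were scaled by TMM and tested with edgeR 4.0.16 by quasi-likelihood. Log2 fold changes carry their standard error. Library totals were 31467221 to 52734636, and an intron had a median of 70 informative reads in a library.

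Introns were named by rule: the 3 highest in control, 3 on each side of the limit, the largest called differences without overlap in each direction (5 between the knockdowns, 3 between treatments, 4 against siNT2, in 4OHT where a treatment had to be chosen), and members of the first 6 gene lists. Factors of nonsense-mediated decay were counted but not named. The values of some introns that the rule names are not reported here. Event coordinates lay inside their genes in GRCh38, although the file names hg19 as its build. Sequences and splice sites were read from GRCh37 with GENCODE 44 at introns matched by gene, strand and exon and intron lengths (327 of 335), with pysam 0.24.0. Current gene symbols replaced 35 older ones. The 4 libraries titled 4OHT siNT2 carry a treatment label of siNT1 and were grouped by title. Simulated data with known changes were used to test both fits. Alternatives covered the siRNA, coverage, balance, scale, minimum difference, control limit, replicate block, left-out libraries, DESeq2 1.42.0 and limma-voom. PSI from the junction with fewer reads and the fit without DMSO siNT1 replicate 1 were chosen after seeing the data.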

Additional observations from a re-analysis of the deposited data

Results flagged for a closer look

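Of 300 sets of 8 libraries (1 named intron in 1 group), 19 (6.33%) held a library whose gap to its nearest neighbour exceeded 0.526 of the whole range, where chance flags about 1 set in 20. MICAL2 and TRIM41, which are near 100 in all groups, gave 8 of them. MICAL2 was at 99.38 in DMSO siNT1 replicate 1, 96.93 in DMSO siSF3B1-13 replicate 4, 98.35 in DMSO siRBM39-08 replicate 4, 99.05 in 4OHT siNT1 replicate 1 and 99.22 in 4OHT siSF3B1-16 replicate 1. TRIM41 was at 98.29 in DMSO siSF3B1-13 replicate 2, 94.2 in 4OHT siNT1 replicate 4 and 98.72 in 4OHT siRBM39-08 replicate 4.

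DMSO siNT1 replicate 1 stood low for RSRP1 (61.4, the others from 81.25 to 93.98) and BUB3 (7.44, the others from 15.51 to 21.85). DMSO siRBM39-06 replicate 3 stood low for RABGGTA (2.74, the others from 10.68 to 16.13) and TTC14 (26.32, the others from 31.2 to 34.12). Low values were also seen for the 79-base LAMB2 intron in DMSO siSF3B1-13 replicate 1 (7.9, the others from 12.6 to 16.81), SLC26A6 in DMSO siRBM39-08 replicate 3 (45.5, the others from 59.23 to 70.37) and ARGLU1 in DMSO siSF3B1-16 replicate 1 (53.13, the others from 64.92 to 74.82). High values were seen for SEMA4C in 4OHT siNT2 replicate 3 (25, the others from 1.64 to 11.11), JTB in 4OHT siNT1 replicate 4 (20.74, the others from 5.81 to 12.75), PTPMT1 in 4OHT siSF3B1-16 replicate 2 (90.65, the others from 62.43 to 73.88) and TYK2 in 4OHT siRBM39-08 replicate 4 (63.4, the others from 34.69 to 46.66).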

How the results depend on the processing

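Both directions of siSF3B1 against siRBM39 stayed within 1.5 times of the reported share under every alternative but 1, and the counts of 4OHT against DMSO moved most. With PSI from the junction with fewer reads, chosen after seeing the data, the share lower in siSF3B1 than in siRBM39 was 11.3% in DMSO and 8.96% in 4OHT. The shares higher and lower in 4OHT than in DMSO became 1.79% and 1.49% in siSF3B1 and 0.896% and 0.896% in siRBM39. Against siNT2 they became 25.7% and 5.25% (DMSO) and 32.4% and 4.96% (4OHT) for siSF3B1. For siRBM39 they became 9.62% and 0.875% (DMSO) and 8.45% and 0.583% (4OHT). Over all 26089 covered introns this measure called 84 (DMSO) and 65 (4OHT) lower in siSF3B1 than in siRBM39. For 4OHT against DMSO it called 37 higher and 9 lower in siSF3B1, and 6 and 5 in siRBM39. NABP1 (0.04 points) and RBPMS (0.98 points) with siRBM39 against siNT2 in 4OHT changed sign, and 9 of 37 named differences no longer passed.

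For 4OHT against DMSO, siSF3B1-13 and siRBM39-06 alone gave 1.79% higher in siSF3B1 and 1.49% higher and 1.19% lower in siRBM39. Of all 26089 covered introns, 78 were then higher in siSF3B1, and 21 were higher and 13 lower in siRBM39. The pair siSF3B1-16 and siRBM39-08 gave 1.79% and 0.896%, and 1.79% and 2.99%, with 0.299% for the treatment difference. Of all covered introns, this pair called 38 and 9, and 24 and 21, with 4 higher and 1 lower for the treatment difference. Plain logit over PSI from 1 to 99 gave 6.25% higher in siSF3B1, 7.64% higher and 10.4% lower in siRBM39, and 0.347% for the treatment difference. Of the 768 introns in that fit, 40 were higher in siSF3B1, and 61 were higher and 49 lower in siRBM39. The treatment difference was called in 1 of the 768. Against siNT2, 36.9% (DMSO) and 37.2% (4OHT) of the 298 introns chosen on siNT1 were higher in siRBM39. Among all 768 these calls numbered 248 (DMSO) and 267 (4OHT). The range and balance filters, which leave 42 introns, gave 2.38% lower in siSF3B1 and 2.38% higher in siRBM39, each of them 1 intron. Of the 5248 introns in that fit, 3 and 8 were so called. The stricter coverage score gave 6.12% lower in siSF3B1, beside 19 of the 19817 introns in its fit. A minimum of 10 points gave 2.39% lower in siSF3B1 and 3.28% lower in siRBM39, and, against siNT2, 6.41% lower for siSF3B1 in DMSO and 3.21% lower for siRBM39 in 4OHT. Of all covered introns, these calls numbered 11, 19, 28 and 12 in the same order. A control limit of 20 gave 7.69% and 9.62% lower in siSF3B1 and siRBM39, beside 20 and 48 of all covered introns. Without 4OHT siRBM39-08 replicate 4 the treatment difference was 0.299%, beside 6 higher and 1 lower of all covered introns. The cause was not tested in any of these.

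Ranges were taken over the fits without 1 replicate number, without DMSO siNT1 replicate 1 and without 4OHT siRBM39-08 replicate 4. For 4OHT against DMSO they were 1.49% to 5.19% higher and 2.09% to 4.32% lower in siSF3B1. In siRBM39 they were 1.19% to 3.75% higher and 3.28% to 7.2% lower, and the treatment difference ran from 0.0% to 0.299%. For siRBM39 against siNT2 they were 15.5% to 25.4% higher and 1.75% to 4.37% lower in DMSO. In 4OHT they were 16.0% to 23.4% higher and 2.62% to 5.57% lower. Host gene shares moved by over 1.5 times only with a minimum change of 1.5-fold: 11.7% higher and 6.42% lower (DMSO) and 14.3% and 8.3% (4OHT) for siSF3B1, 3.02% and 2.64% (DMSO) and 4.91% and 3.4% (4OHT) for siRBM39, and 11.7% and 8.3% for 4OHT against DMSO. Replicate numbers did not pair the libraries. Deviations were correlated between 2 groups at the same replicate number, and the 60 correlations ran from -0.85 to 0.68, with 17 over 0.1. With the replicate number as a block, 38.2% were higher and 17% lower in siSF3B1 than in siRBM39 in 4OHT, beside 1885 and 177 of all covered introns. No share moved by over 1.5 times with this block. The fit without DMSO siNT1 replicate 1 moved none of the shares that far.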
